A study of Homo sapiens with 2 samples.

Results

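The genes described here are the 47 that encode the machinery which licenses, fires and copies origins of DNA replication. All probe sets that the platform annotation names for a given list of symbols were taken. All 47 have at least 1 probe set, out of 19775 genes with a named probe set, and together they have 85 of the 54675 probe sets on the array. The cells were AGS, an epithelial line from a human gastric adenocarcinoma. The series holds 2 one-colour Affymetrix arrays, 1 from cells labelled control and 1 from cells treated with a synthetic double-stranded small interfering RNA against galectin-3. The sources used here do not give the treatment of the control cells or the dose and time of silencing. Galectin-3 is a sugar-binding protein made from the gene LGALS3, and the comparison asks which transcripts differ when it is depleted.

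A eukaryotic cell copies its DNA once per division by separating 2 steps in time. In G1 the origin recognition complex, CDC6 and CDT1 load the ring-shaped MCM2 to MCM7 helicase onto origins, which is called licensing. In S phase kinases activate the helicase with CDC45 and GINS, and polymerases alpha, delta and epsilon, the sliding clamp PCNA with its loader RFC, and the single-strand binding protein RPA build the fork. Many of these genes are known targets of E2F transcription factors, and their transcripts are more abundant in dividing than in resting cells.

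On the silenced array 44 of the 47 replication genes had a lower signal than on the control array, most of them by a modest amount. Their median log2 ratio (silenced minus control) was -0.47, which is 72.3% of the control signal. By a rule of size, 4 were at least 2-fold lower (POLA1, ORC3, POLE and MCM3), against 3.07% of all 10514 measured genes, and 0 were at least 2-fold higher, against 3.31%. At the smaller size of 1.5-fold, 17 were lower, against 10.4% of measured genes, and 0 were higher, against 10.6%. This smaller size was chosen because most of these genes were already known to fall short of 2-fold. A ratio under 0 was found in 51.4% of all measured genes, whose median was -0.02. No value has a replicate check, since each group is 1 array, so no test was made and precision is limited by the number of arrays.

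**Figure D1:**
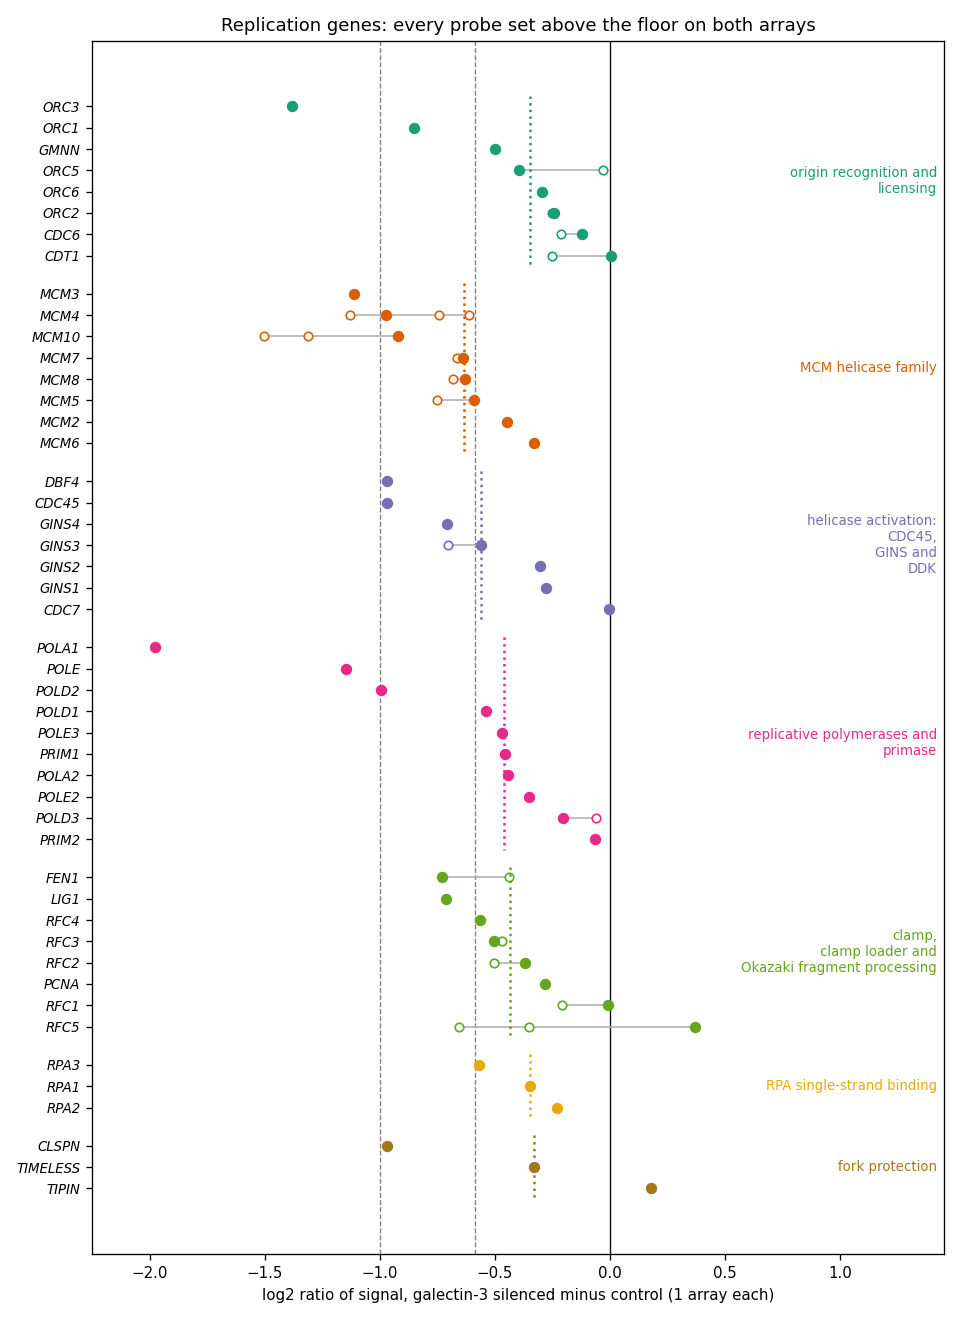
Each row is a replication gene and each point a probe set above the background floor on both arrays, with the log2 ratio of signal (silenced minus control) on the horizontal axis. Filled points stand for the gene, open points are its other probe sets, dotted lines are group medians, and dashed lines mark 1.5-fold and 2-fold lower. POLA1 lies farthest to the left at -1.98, and RFC5 is the gene whose probe sets lie on both sides of 0 by the widest margin.

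The silenced array carried a much lower signal for its target. LGALS3 had a signal of 20206 in control and 2700 in silenced cells, 13.4% of the control, on the probe set that was above the background floor. Both arrays had been brought by the authors to a common mean, so any change in total RNA per cell is not visible. The background floor, the level under which a signal was not told from background, was 138.4 for the control and 109.5 for the silenced cells. All 47 replication genes were above the floor on both. Of 8 epithelial markers, KRT8, KRT18, KRT19, EPCAM, ELF3 and CLDN4 were above the floor on both arrays, KRT7 on the silenced array alone and CLDN3 on neither. Their summed signal was 91690 in control and 112219 in silenced cells. Of 8 leukocyte markers on the array 1 was above the floor, LYZ, with signals of 25668 and 27270, while PTPRC, CD3D and CD3E were under it on both arrays. Of 8 fibroblast markers COL1A1 passed the floor on each array (816.3 and 1502), and THY1 on the silenced array alone (90.2 and 119.1). The other fibroblast markers, among them COL1A2, COL3A1 and PDGFRB, were under it, and the summed fibroblast signal was 1163 and 1792. Of 5 endothelial markers 1 was above the floor, PECAM1, on the silenced array alone, with signals of 127.4 and 121. Because the control floor is the higher one, neither THY1 nor PECAM1 has a direction. The part of these markers in the results was not tested. In RNA from a whole culture, fewer replicating cells and less RNA per cell cannot be told apart.

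The promoters are shown next because many of these genes are known targets of E2F. The motif did not enter the choice of genes, but it was itself chosen with the windows in hand. A high share of matches is therefore no independent finding. RefSeq promoter windows of assembly GRCh38.p14, from 250 bases before to 50 bases after each annotated start, were found for 41 of the 47 genes, as 53 windows. The genes without one were MCM4, MCM5, GINS4, POLD3, RPA2 and RPA3. Each window was searched on both strands for the 8-base E2F motif in the forms TTTCCCGC, TTTCGCGC, TTTGCCGC and TTTGGCGC. A match was found in 22 of 53 windows (41.5%), against 3.31% of all 35116 windows of the same length and 5.11% of those of measured genes. Counted by gene, 22 of the 41 (53.7%) had a match, against 6.95% of the 8707 measured genes with a window. In lists described below, the share by gene was 23.7% for other replication genes and 21.1% for nucleotide supply. It was 22.7% for G1/S regulators and 10% for mitosis. Of the 30 matches, 8 shared 4 bases with another E2F match on the opposite strand, and 5 overlapped a match of another motif searched. A match is a description of letters and does not show that a factor binds there.

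The 4 genes that were at least 2-fold lower all had an E2F match in their window, as had 22 of the 41 replication genes with a window. Their 250 bases upstream of the annotated start follow, 5′ to 3′ on the strand of the gene, with whole matches in capitals. MCM6 is added because it had the most matches, and TIPIN because it had matches and a ratio above 0. TIPIN has 2 windows, and the stretch shown is from the one with matches. CDT1 also had a match and a ratio above 0, of 0.01, and is not printed. POLA1 lies on chrX:24693668-24693917 (plus strand), ORC3 on chr6:87589885-87590134 (plus strand), POLE on chr12:132687343-132687592 (minus strand) and MCM3 on chr6:52284743-52284992 (minus strand). MCM6 lies on chr2:135876444-135876693 (minus strand) and TIPIN on chr15:66356686-66356935 (minus strand).
POLA1: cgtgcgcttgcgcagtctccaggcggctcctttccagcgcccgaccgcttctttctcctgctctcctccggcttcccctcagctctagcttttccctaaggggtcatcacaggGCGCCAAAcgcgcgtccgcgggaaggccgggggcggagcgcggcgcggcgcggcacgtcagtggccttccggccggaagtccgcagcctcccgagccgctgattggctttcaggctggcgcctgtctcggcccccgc
ORC3: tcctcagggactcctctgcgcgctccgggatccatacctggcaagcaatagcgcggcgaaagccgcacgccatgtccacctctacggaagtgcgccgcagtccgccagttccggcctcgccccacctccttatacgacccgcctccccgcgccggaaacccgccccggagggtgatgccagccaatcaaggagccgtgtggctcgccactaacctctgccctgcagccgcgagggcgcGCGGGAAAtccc
POLE: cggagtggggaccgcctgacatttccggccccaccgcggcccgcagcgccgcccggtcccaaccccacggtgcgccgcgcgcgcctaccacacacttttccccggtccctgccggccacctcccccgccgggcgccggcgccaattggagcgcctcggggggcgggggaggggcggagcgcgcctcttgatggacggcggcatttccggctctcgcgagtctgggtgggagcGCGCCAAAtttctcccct
MCM3: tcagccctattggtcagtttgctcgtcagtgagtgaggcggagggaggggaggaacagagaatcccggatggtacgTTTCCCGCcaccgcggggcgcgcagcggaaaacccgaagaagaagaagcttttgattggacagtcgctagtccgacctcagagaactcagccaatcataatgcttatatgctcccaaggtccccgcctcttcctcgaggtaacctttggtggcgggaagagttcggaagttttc
MCM6: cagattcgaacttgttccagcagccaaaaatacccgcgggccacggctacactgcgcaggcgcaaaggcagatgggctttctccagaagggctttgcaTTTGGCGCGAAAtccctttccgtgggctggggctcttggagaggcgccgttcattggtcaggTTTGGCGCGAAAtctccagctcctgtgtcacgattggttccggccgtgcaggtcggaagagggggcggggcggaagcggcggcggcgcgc
TIPIN: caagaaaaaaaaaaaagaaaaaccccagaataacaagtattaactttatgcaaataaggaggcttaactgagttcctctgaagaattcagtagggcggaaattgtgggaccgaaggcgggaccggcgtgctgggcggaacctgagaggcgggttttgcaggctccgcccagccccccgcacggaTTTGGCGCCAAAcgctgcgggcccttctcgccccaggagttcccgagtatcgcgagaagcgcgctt

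In POLA1 the match began 137 bases before the start, in ORC3 12 bases before it and in POLE 18 bases before it. MCM3 had a match 174 bases before the start and another that spans the start and is not in the printed stretch. MCM6 had 2 pairs of overlapping matches, each pair on opposite strands. TIPIN had 1 such pair, 66 bases before the start. Over all 22 genes, 19 of the 30 matches began within 100 bases before the start, with a median position of -44. Positions were not counted in the windows of other genes, so no background stands beside these values.

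The median ratios of genes with and without a match differed little. The 22 genes with a match had a median log2 ratio of -0.47, with values from -1.98 to 0.18. The 19 genes whose window held none of these letters had a median of -0.46, from -0.997 to 0.37. At least 1.5-fold lower were 8 of the 22 and 6 of the 19, and at least 2-fold lower 4 of the 22 and 0 of the 19. These differences were not tested. The 6 genes with no window had a median of -0.58.

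**Figure D2:**
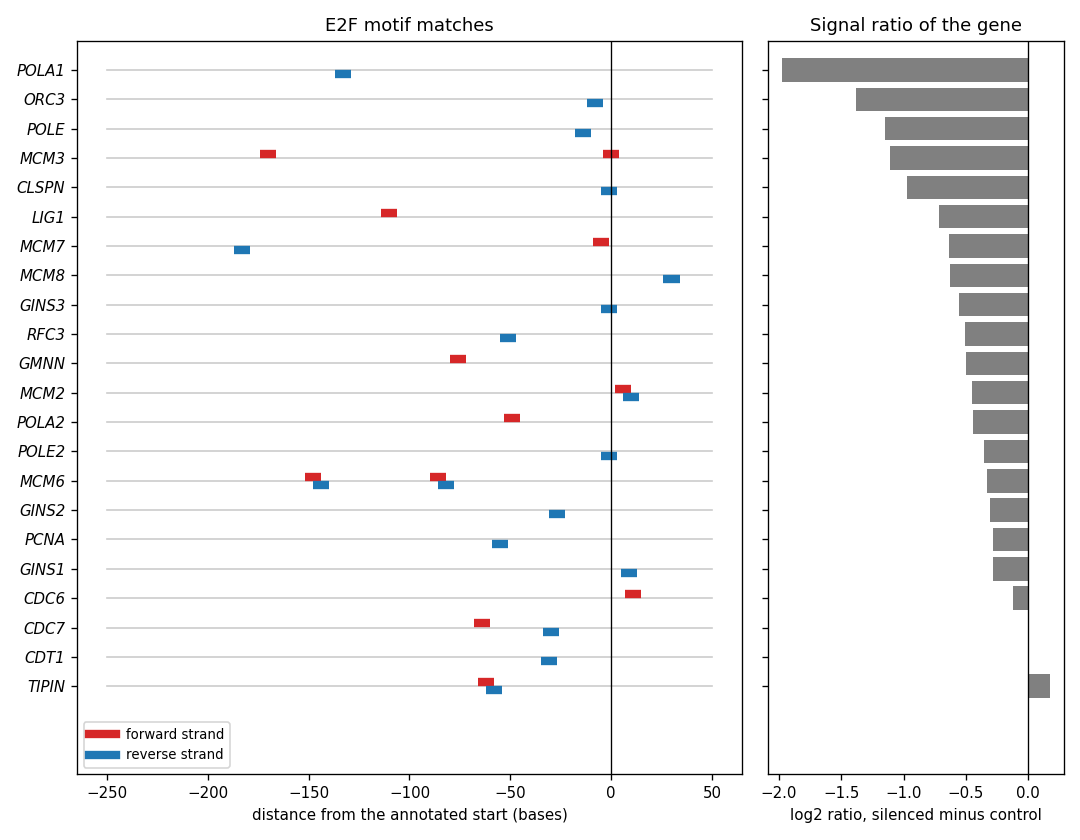
The left panel maps E2F motif matches, on the forward and the reverse strand, by distance in bases from the annotated start of the 22 replication genes that have a match, and the right panel gives each gene's log2 ratio (silenced minus control). Of the 30 matches, 19 begin within 100 bases before the start, while that of POLA1, the gene with the lowest ratio at -1.98, begins 137 bases before it.

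Other promoter elements are given as shares, with no test of their differences. The cell cycle genes homology region, a short element of late cell cycle promoters searched as TTTGAA and TTCGAA on both strands, was present in 3 of 41 replication genes (7.32%), against 24 of 30 genes of a mitosis list (80.0%) and 15.9% of measured genes. The E2F forms were present in 3 of those 30 mitotic genes (10%). The letters CCAAT, on either strand, were present in 61.0% of the replication genes, 80.0% of the mitotic genes and 43.7% of measured genes. The GC box GGGCGG was in 78.0% of the replication genes and 77.6% of measured genes. Over all 35116 windows, the homology region was in 16.4%, CCAAT in 34.6% and the GC box in 45.0%.

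Genes of origin recognition and licensing had a median log2 ratio of -0.35, and 2 of 8 were at least 1.5-fold lower. ORC3, a subunit of the origin recognition complex, had a signal of 1161 in control and 445.8 in silenced cells, the order used for each pair of signals here. It was 2.60-fold lower, with the 95th lowest ratio of the 10514 measured genes. ORC1, the ATPase subunit whose level rises and falls with the cell cycle, had signals of 625 and 346.6 and was 1.80-fold lower. Both genes had a single probe set, so no other probe set bears on these values. The remaining subunits on the list were closer to the control. ORC2 had signals of 1916 and 1620, ORC6 of 2003 and 1630, and ORC5 of 2268 and 1726, with log2 ratios of -0.24, -0.30 and -0.39. The other ORC5 probe set above the floor gave -0.03.

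The loaders CDC6 and CDT1 were near the control level. CDC6, an ATPase that works with the origin recognition complex to load the helicase, had signals of 1970 and 1810 and a log2 ratio of -0.12, with -0.21 on its other probe set. CDT1, which brings the helicase to the origin, had signals of 379.5 and 380.9 and a ratio of 0.01, with -0.25 on its other probe set. Neither has a settled direction, because over the other processing choices CDC6 ran from -0.36 to 0.06 and CDT1 from -0.23 to 0.19. GMNN, the geminin that holds CDT1 inactive after S phase has begun, had signals of 5528 and 3913 and was 1.41-fold lower.

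The MCM family had the lowest median of the 7 groups, -0.63, and all 8 of its genes had a ratio under 0. At least 1.5-fold lower were 6 of the 8. MCM3, a subunit of the replicative helicase, had signals of 3106 and 1437 and was 2.16-fold lower. MCM4, another helicase subunit, was 1.96-fold lower, with signals of 2435 and 1239. It had 4 probe sets that passed the floor on each array, which spread from -1.13 to -0.61 and so all lay on the lower side. The other subunits of the ring were lower by less. MCM7 had signals of 3961 and 2547, a log2 ratio of -0.64, and MCM5 signals of 2682 and 1779, a ratio of -0.59. MCM2 had signals of 4257 and 3120, a ratio of -0.45. MCM6 had signals of 10091 and 8034, a ratio of -0.33 and the smallest difference of the ring. The 6 subunits, which form a complex with 1 copy of each, therefore spread over 0.78 on the log2 scale between MCM3 and MCM6.

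MCM10, a scaffold that is needed when the helicase starts to unwind, was lower on each of its 3 probe sets. The brightest had signals of 2492 and 1315, a log2 ratio of -0.92. The others had 781.9 and 276, a ratio of -1.502, and 629.1 and 253.4, a ratio of -1.31. The probe set that stands for the gene thus gave the smallest of its 3 differences. MCM8, a relative that acts in recombination, had signals of 1273 and 821.3, a ratio of -0.63, and -0.68 on its other probe set.

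**Figure D3:**
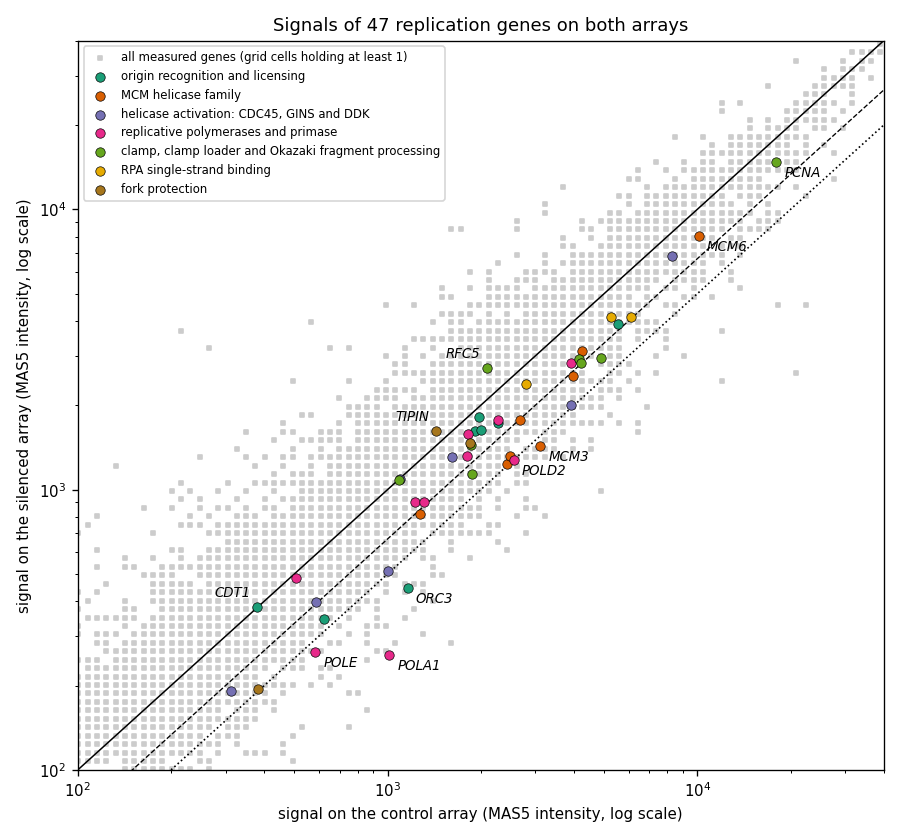
Signals (MAS5 intensity, log scales) on the control array (horizontal) and the silenced array (vertical) are plotted for the 47 replication genes, coloured by group, over the measured genes in grey. The solid line marks equal signal and the dashed and dotted lines mark 1.5-fold and 2-fold lower. Most replication genes lie between the solid and dotted lines, with 4 at or beyond 2-fold and RFC5, TIPIN and CDT1 at or above the solid line.

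The genes of helicase activation had a median of -0.56, and 3 of 7 were at least 1.5-fold lower. CDC45, which together with GINS turns the MCM ring into the active helicase, had signals of 1001 and 512 and was 1.95-fold lower. The 4 GINS subunits were all on the lower side, from -0.71 for GINS4 to -0.28 for GINS1. GINS4 had signals of 312.9 and 191.7, GINS3 of 585.7 and 397.6, GINS2 of 1615 and 1307, and GINS1 of 8257 and 6800. GINS3 was lower on both of its probe sets, at -0.56 and -0.71. The kinase that fires origins was lower in its regulatory subunit and near the control in its catalytic subunit. DBF4, the regulatory subunit, had signals of 3911 and 1999 and was 1.96-fold lower. CDC7, the catalytic subunit, had signals of 1097 and 1093 and a ratio of -0.01, which ran from -0.24 to 0.18 over the other processing choices and so has no settled direction.

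All 10 genes of the replicative polymerases and primase had a ratio under 0, with a median of -0.46, although PRIM2, at -0.06, changed sign when the hybridization controls were set equal. POLA1, the catalytic subunit of polymerase alpha, had signals of 1010 and 256.5, which is 25.4% of the control. It was 3.94-fold lower, the 14th lowest ratio among the 10514 measured genes, on its single probe set. The rest of the polymerase alpha complex, which makes the RNA and DNA primers of each fragment, differed much less. POLA2, its accessory subunit, had signals of 1223 and 900.6, a log2 ratio of -0.44. The primase subunit PRIM1 had 1810 and 1318, a ratio of -0.46, and PRIM2 had 507.2 and 485.5. POLA1 was therefore lower than the other subunit genes of its own complex by at least 1.52 on the log2 scale.

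In polymerase epsilon, which copies the leading strand, the catalytic subunit was again the lowest. POLE had signals of 584.4 and 263.6 and was 2.22-fold lower. POLE3 and POLE2, accessory subunits, had log2 ratios of -0.47 (signals of 3914 and 2830) and -0.35 (signals of 2269 and 1776). POLE4, a further subunit from the wider list was nearer to POLE, with signals of 1052 and 594, a ratio of -0.82. In polymerase delta, which extends the lagging strand, an accessory subunit was lowest. POLD2 had signals of 2557 and 1281, a ratio of -0.997, which missed the 2-fold limit narrowly. The catalytic subunit POLD1 had 1313 and 904.5, a ratio of -0.54, and POLD3 had 1825 and 1583, a ratio of -0.21. POLD4, the small subunit, also from the wider list, went the other way, with signals of 610.6 and 887.7, a ratio of 0.54. POLE4 and POLD4 were named after their values were seen. POLD2 was the nearest gene outside the 2-fold limit and MCM3, at -1.11, the nearest inside. Between -0.90 and the limit lay 6 genes, which were MCM4, MCM10, CDC45, DBF4, POLD2 and CLSPN.

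The clamp, its loader and the enzymes that join Okazaki fragments had a median of -0.44, and 2 of 8 were at least 1.5-fold lower. FEN1, the nuclease that trims the flaps of lagging-strand fragments, had signals of 4900 and 2953 and was 1.66-fold lower, with a log2 ratio of -0.44 on its other probe set. LIG1, the ligase that seals these fragments, had signals of 1871 and 1141 and was 1.64-fold lower. PCNA, the clamp itself, had signals of 17962 and 14755 and was 1.22-fold lower. The clamp loader showed small differences. RFC4 had signals of 4201 and 2841, a ratio of -0.56, RFC3 of 4142 and 2920, a ratio of -0.50, and RFC2 of 1861 and 1443, a ratio of -0.37. RFC1, the large subunit, had signals of 1091 and 1084 and a ratio of -0.01, which has no settled direction.

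RFC5 was the gene whose probe sets disagreed most. Its brightest probe set had signals of 2099 and 2711, a log2 ratio of 0.37. The other probe sets had 1884 and 1476, a ratio of -0.35, and 1393 and 882.8, a ratio of -0.66. The gene was thus 1.29-fold higher or on the lower side depending on the probe set. With the median of its probe sets its ratio was -0.35. Over all genes with several probe sets the SD between probe sets of the same gene was 0.32 on the log2 scale, and over the 17 replication genes of that kind 0.23.

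Of RPA and the fork protection genes CLSPN alone was at least 1.5-fold lower. RPA3, RPA1 and RPA2, the subunits of the protein that coats single-stranded DNA, had log2 ratios of -0.57, -0.35 and -0.23. Their signals were 6107 and 4122 for RPA3, 5248 and 4120 for RPA1, and 2792 and 2382 for RPA2. Both RPA1 probe sets above the floor gave -0.35. CLSPN, the claspin that couples the fork to the replication checkpoint, had signals of 382.1 and 195.2 and was 1.96-fold lower. Another CLSPN probe set was above the floor on the control array alone, with signals of 205.9 and 96.1. TIMELESS, which with TIPIN steadies a paused fork, had signals of 1842 and 1465, a ratio of -0.33. Its partner TIPIN had signals of 1432 and 1618, a ratio of 0.18 that ran from -0.06 to 0.36 over the other processing choices.

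Where a replication gene had several probe sets, they mostly pointed the same way. Of the 85 probe sets, 68 were above the floor on both arrays, 1 on the control array alone and 16 on neither. Of those 68, 65 had a ratio under 0, 27 reached 1.5-fold lower and 7 reached 2-fold lower, while 52.0% of all named probe sets above the floor had a ratio under 0. Of the 17 genes with several such probe sets, 15 had all of them under 0, against 34.5% of 4728 genes of that kind on the array. The exceptions were RFC5 and CDT1. In 5 of the 17 (MCM4, MCM5, MCM7, MCM8 and MCM10) all of them were at least 1.5-fold lower, against 4.21%. The other 30 replication genes rest on a single probe set above the floor, POLA1, ORC3, POLE and MCM3 among them.

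Genes of similar signal had about the same background shares as all measured genes. Among the 8499 measured genes above the floor on both arrays whose mean log2 signal lay within the range of the replication genes, 3.04% reached 2-fold lower and 10.4% reached 1.5-fold lower. The median ratio of these genes was 0.00.

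A wider list of 45 other genes of DNA replication was lower by less. Of 43 measured, 35 had a ratio under 0, against 51.4% of all measured genes, and the median log2 ratio was -0.30. Past 2-fold were 2 genes (4.65%), both lower, against 3.07% of all measured genes. Past 1.5-fold were 10 lower genes (23.3%), against 10.4%, and 1 higher gene (2.33%), against 10.6%. The higher gene was PRIMPOL, a primase that restarts stalled forks, at 0.75, named after its value was seen. ASF1B, a histone chaperone that delivers histones to new DNA, had signals of 1236 and 366.5 and was 3.37-fold lower. RNASEH2B, a subunit of the nuclease that removes ribonucleotides from DNA, had signals of 284.1 and 125.8 and was 2.26-fold lower, with a log2 ratio of -0.63 on another probe set. With a floor 2 times higher its silenced signal was under the floor and the bound was -0.37. Chromatin assembly genes had 3 of 9 at least 1.5-fold lower. Among firing factors 2 of 6 were, DBF4B, at least 1.94-fold lower with a silenced signal under the floor, and DONSON, at -0.66. Among PCNA regulators and alternative clamp loaders 2 of 8 were, CHTF18 at -0.76 and DSCC1 at -0.67. The replisome unloading and topology genes LRR1 and TRAIP had ratios of -0.61 and -0.51. Checkpoint genes differed little, with 0 of 6 past 1.5-fold, HUS1 at -0.30 and RAD17 at 0.29. Of the licensing genes outside the main list, MCMBP was at -0.34 and ORC4 at -0.22. Their other probe sets above the floor gave -0.63 for MCMBP and -0.55 for ORC4.

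The replication genes lay between all measured genes and genes of mitosis. The lists compared here were chosen with earlier results of these data known, so this placing is descriptive. A list of 35 mitotic genes had a median log2 ratio of -1.18. All 35 were at least 1.5-fold lower, against 10.4% of measured genes, and 25 of them at least 2-fold, against 3.07%. The lowest were the kinase PLK1 at 4.08-fold lower, the spindle protein DLGAP5 at 3.94-fold, the kinesin KIF20A at 3.28-fold and the phosphatase CDC25C at 3.17-fold. Genes of nucleotide supply, which make the building blocks of DNA, had a median of -0.64, and 11 of 20 were at least 1.5-fold lower. GART and DCK, enzymes of purine synthesis and of deoxynucleoside salvage, were 2.20-fold and 2.17-fold lower, and the thymidine kinase TK1 2.02-fold. The other GART probe sets above the floor on each array had log2 ratios from -1.38 to -0.37, and a dim one, above it in silenced cells alone, gave a bound of 0.39. The mitotic genes thus moved in the same direction as the replication genes and by more, and their part in the lower replication transcripts was not tested.

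**Figure D4:**
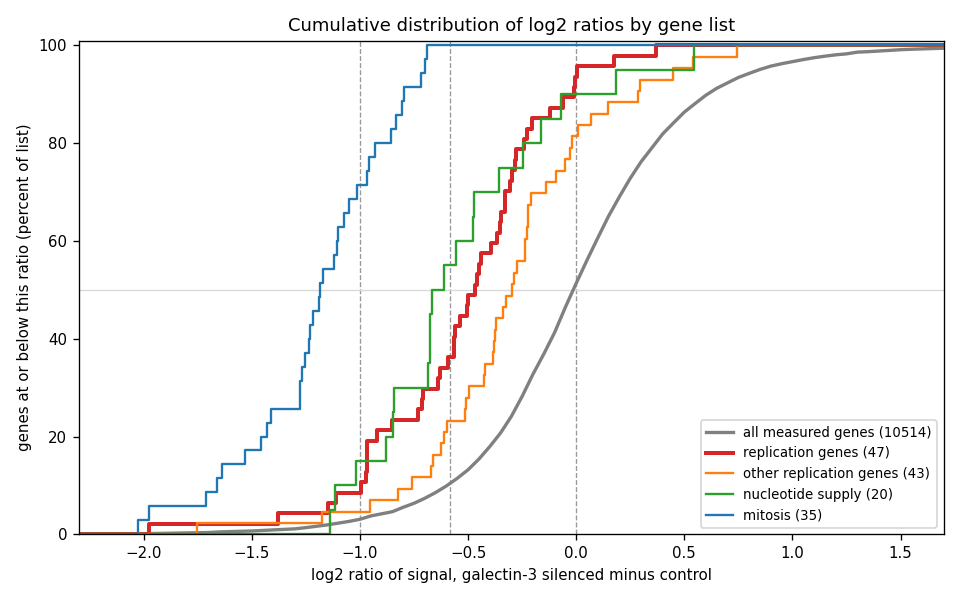
Curves give the percentage of each gene list at or below a log2 ratio (silenced minus control, horizontal axis), for all 10514 measured genes, the 47 replication genes, 43 other replication genes, 20 nucleotide supply genes and 35 mitotic genes. The replication genes cross 50% at -0.47, to the left of all measured genes at -0.02 and to the right of the mitotic genes at -1.18. The lists were chosen with earlier results of these data known.

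The size of the difference depended on how the arrays were scaled, and its direction as a group did not. With the hybridization controls set equal the median of the replication genes was -0.29 and that of all measured genes 0.17. With the poly-A controls set equal these medians were -0.70 and -0.25. Both scalings add a constant to every ratio, so the distance of -0.45 between the 2 medians is the same as deposited by construction. The share of higher genes among all those past 2-fold was 51.9% as deposited, 75.9% with the hybridization controls and 22.7% with the poly-A controls. With the hybridization controls 40 of the 47 replication genes had a ratio under 0, against 34.4% of all measured genes. With the poly-A controls 46 had one, against 71.7%. Over 12 alternatives 40 of the 47 genes kept a ratio under 0 in each setting where they were measured. The share of all measured genes that did so was not counted. The 7 replication genes whose sign changed in at least 1 setting were CDC6, CDC7, CDT1, PRIM2, RFC1, RFC5 and TIPIN. POLA1 and ORC3 were at least 2-fold lower in each of these settings where they were measured, while POLE and MCM3 fell short of 2-fold with the hybridization controls set equal, at -0.97 and -0.93.

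**Figure D5:**
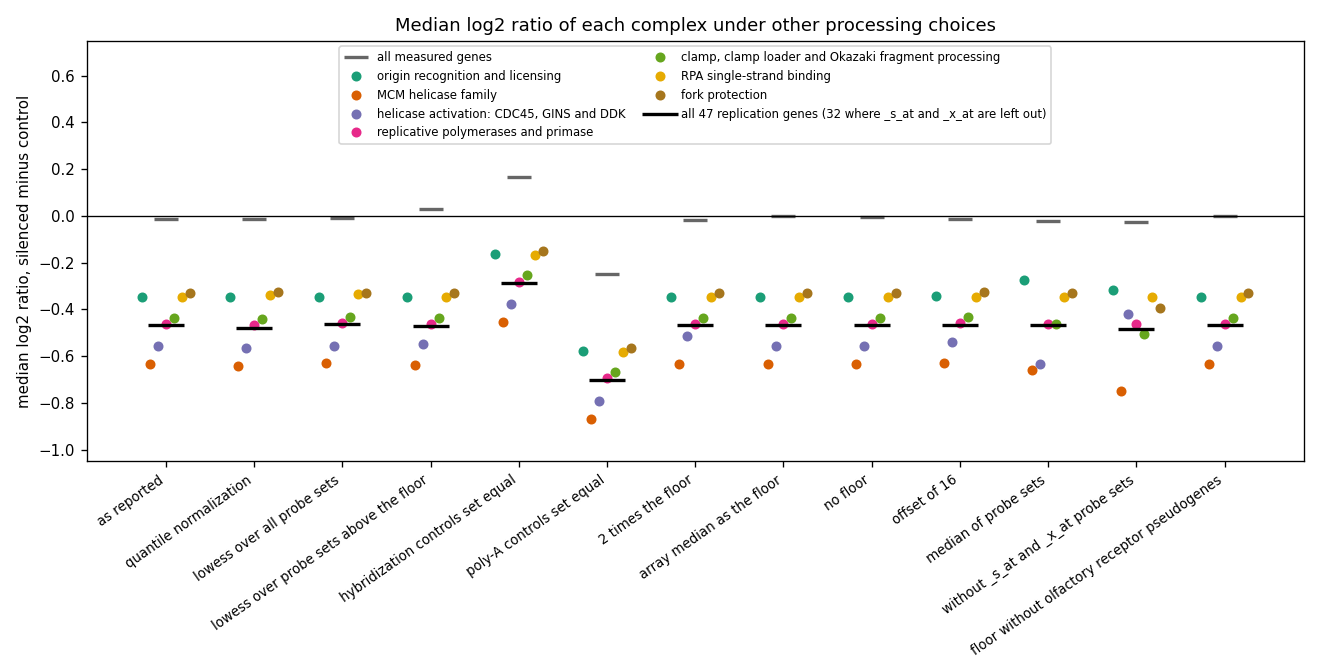
Points give the median log2 ratio (silenced minus control) of each group of replication genes, black bars that of the whole list and grey bars that of all measured genes, for the reported processing and 12 alternatives along the horizontal axis. Every group median lies under 0 in every setting shown, and the list moves together with all measured genes when the spiked controls are set equal.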

How the data were processed

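Per the labels' protocols, total RNA came from Trizol extraction and was turned into biotinylated cRNA for Affymetrix arrays. The authors deposited linear signal intensities, for which the submitters' processing notes name MAS5. No version, scaling target or filter is given in the sources used here. MAS5 treats every array separately, and its low signals are noisy. The 2% trimmed mean was 500.07 on both arrays, and the deposited scaling was kept.

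Probe sets were named from the platform annotation, which gives a single gene for 41097 of 54675 probe sets, and 41043 matched the RefSeq gene table (GRCh38.p14) by gene identifier. Probe sets with several genes named none. The floor on each array was the 95th percentile of 135 olfactory receptor probe sets, and lower signals were raised to it. Each gene took its probe set of highest mean log2 signal, leaving out _x_at probe sets where it had another. A gene above the floor on at least 1 array counted as measured. The log2 ratio is silenced minus control, and 2-fold and 1.5-fold are rules of size. There is 1 array per group, so no test was made.

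All 47 replication genes are named. From the other lists the rule takes up to 4 genes past 2-fold per role, or the 2 largest. The members, the lists, the 1.5-fold size and most alternatives were chosen with earlier results of these data known. Promoter motifs were chosen later, with the windows in hand. The script was tested on simulated data. Python 3.11.15, pandas 2.3.3 and statsmodels 0.14.6 were used.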

Additional observations from a re-analysis of the deposited data

How the results depend on the processing

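With 1 array per group no replicate could be left out. No paired analysis was possible because each group has a single array. Over 12 alternatives (5 scalings, 4 floors, an offset of 16 and 2 choices of probe set, of which the floor without olfactory receptor pseudogenes was chosen after seeing the data), the list median kept its sign, with values from -0.70 to -0.29. The count at least 2-fold lower, 4 as reported, was 2 with the hybridization controls set equal and 11 with the poly-A controls set equal. Of all measured genes 1.74% and 6.02% were at least 2-fold lower with these scalings. The count at least 1.5-fold lower, 17 as reported, was 11 and 30, against 6.03% and 20.7% of all measured genes. It was 10 of 32 measured genes without _s_at and _x_at probe sets, where 15 genes have no probe set left. In that setting 11.6% of all measured genes were at least 1.5-fold lower. No replication gene was at least 2-fold higher in any of these settings. The spiked controls disagreed with each other, with median log2 ratios of -0.18 for hybridization and 0.23 for poly-A controls, and these arrays do not settle which scaling is right.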

Other observations

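Regulators of the G1/S step, which act upstream of replication, did not move together on these arrays. Of 25 measured, 15 had a log2 ratio under 0, against 51.4% of all measured genes, and the median was -0.18. Past 1.5-fold were 7 lower genes (28%) and 4 higher genes (16%), against 10.4% and 10.6% of all measured genes. The D-type cyclin CCND3 was at 1.498 and the cyclin-dependent kinase inhibitor CDKN2B at 1.25, both higher on the silenced array, while the cyclin CCNA2 was at -1.07 and the repressor E2F7 at -1.06. E2F7 was at -0.29 on its other probe set. Some genes known as E2F targets were near the control level and were picked after their values were seen. E2F1 had signals of 400.3 and 405.7, a log2 ratio of 0.02, and CCNE2 of 1692 and 1988, a ratio of 0.23, and both changed sign in at least 1 of the 12 alternatives. CCNE1 had signals of 2180 and 2653, a ratio of 0.28, which ran from 0.05 to 0.46 over the same alternatives. Further genes of the same list were lower, among them E2F8 at -1.01, RBL1 at -0.99 and E2F2 at -0.73. Others were higher, among them the kinase inhibitors CDKN1C at 1.01 (signals of 185.5 and 373.5) and CDKN1A at 0.87. These genes too were named after their values were seen.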
